A study of Homo sapiens with 6 samples.

Results

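This account covers 10 genes of the cyclic AMP pathway in SH-SY5Y cells: ARHGAP36, GNAS, the protein kinase A genes PRKACA, PRKACB, PRKAR1A, PRKAR1B, PRKAR2A and PRKAR2B, the kinase inhibitor PKIA and the transcription factor CREB1. They were chosen by name, because ARHGAP36 and GNAS were already known to rank among the most abundant nuclear genes of these libraries. All 10 were found among the 60709 genes with a value. All 10 had at least 10 counts in every library, beside 22.9% of those 60709 genes. SH-SY5Y is an established human neuroblastoma line, a cloned subline of SK-N-SH, and was the only line used.

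The study asked how these cells respond to a fumarate attached to an NRF2 peptide. The labels describe 6 wells, all grown in 2 mL of serum-containing DMEM/F12 to 80% confluence, given 10 uL of DMSO and lysed after 5 h. In 3 wells nothing but DMSO was added, and the other 3 also received 200 uL of an aqueous solution of the Nrf2-peptide-linked fumarate, made with 2 mg of peptide in 600 uL of water. The table's columns numbered 4, 5 and 6 carry the numbers of the control samples and are referred to as control replicates 1, 2 and 3 here. The other 3 columns carry no number found in the labels and were not used, so the peptide-treated wells were not analysed here and no effect of the peptide is reported. If the columns were numbered independently of the labels, the name control would not hold. Nothing in the labels says whether the 3 wells were separate cultures, so each SD below may be largely technical.

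Totals were 8887854 to 11397407 counts per library, and a count of 0 allows up to 0.263 to 0.339 CPM, taken as 3 counts and covering counting error only. CPM values are counts brought to a total of 1000000 per library, after TMM factors adjust that total. Of the 8 markers of adrenergic neuroblastoma cells, 8 had at least 10 counts in every library. The highest by CPM were HAND2 (914 ± 44.3 CPM, SD, n = 3), DBH (799 ± 90.2 CPM) and GATA2 (436 ± 21.8 CPM). The summed level of the 8 was 2792 to 3150 CPM. TH, a gene of catecholamine synthesis that was not on this list, had 0 counts in every library. Fibroblast or mesenchymal markers summed to 33.9 to 34.8 CPM, with LUM at 14.6 ± 0.601 CPM, COL1A1 at 14.4 ± 0.974 CPM and DCN at 5.21 ± 0.235 CPM, and PRRX1 at 0 counts. Schwann cell markers summed to 5.08 to 7.45 CPM, with SOX10 at 0 counts. Leukocyte markers summed to 0.468 to 1.05 CPM, with LYZ at 0 counts and PTPRC at 1, 1 and 0 counts. The other leukocyte marker counts were of CD74. At least 10 counts in every library were reached by 3 of 5 fibroblast or mesenchymal, 2 of 4 Schwann cell and 0 of 3 leukocyte markers. Over all genes in the table the share was 22.9%.

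In the cyclic AMP pathway a hormone or transmitter receptor activates the stimulatory G protein, whose alpha subunit is encoded by GNAS, and this subunit switches on adenylyl cyclase. Cyclic AMP binds the regulatory subunits of protein kinase A (PKA), which then release active catalytic subunits, and these phosphorylate many proteins, among them CREB1. ARHGAP36 is known as an inhibitor of PKA that binds the catalytic subunit and promotes its degradation, by which it can activate Hedgehog signalling. PKA counts as a brake on Hedgehog signalling, and in sympathetic neuroblasts cyclic AMP is known to promote differentiation.

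Sequences at annotated starts are shown for the member whose level stands out, ARHGAP36, and for PRKAR1A, the member with a full cyclic AMP response element (CRE), the site that CREB1 binds, in its windows. They come from RefSeq windows on GRCh38.p14 that run from 250 bases before to 50 bases after an annotated start; 9 of the 10 members matched, with 29 windows in all. The ARHGAP36 stretches are upstream of its annotated starts at 131058346 and 131082435 on the plus strand of chromosome X and hold no exon base of GENCODE release 29. The gene counts do not say which of these starts was used. Capitals mark GC boxes (GGGCGG) in the ARHGAP36 lines and the CRE (TGACGTCA) in the PRKAR1A line.
ARHGAP36 upstream start, chrX:131058147-131058241: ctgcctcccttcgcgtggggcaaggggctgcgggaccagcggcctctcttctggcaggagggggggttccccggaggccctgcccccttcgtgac
ARHGAP36 internal start, chrX:131082185-131082434: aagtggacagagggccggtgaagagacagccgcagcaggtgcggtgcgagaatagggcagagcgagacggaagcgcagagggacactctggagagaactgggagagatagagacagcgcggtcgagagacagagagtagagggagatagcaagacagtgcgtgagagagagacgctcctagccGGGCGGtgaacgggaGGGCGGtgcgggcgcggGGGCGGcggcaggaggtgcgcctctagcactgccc
PRKAR1A, chr17:68512370-68512399: gcgaggcgcatTGACGTCAgtagccgaacg

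The internal ARHGAP36 stretch lies in an intron of the longer transcripts, has 250 bases, is 65.2% GC and holds 3 GC boxes. The upstream stretch is 73.7% GC and holds none, but has only 95 bases and lies 104 bases short of its start. The whole window at that start holds 1 GC box, in the exonic part left out, so the 2 stretches are not like for like. On either strand, GGGCGG occurred in 15 of the 29 member windows and in 45.0% of all 35116 windows. The CRE palindrome TGACGTCA was found in 2 of the 29, overlapping windows of PRKAR1A that hold the same site, and in 1.85% of all windows. It begins 2 bases after the start at 68512379 and 49 bases before the start at 68512430, and 21 of the 30 bases shown are exonic in GENCODE release 29. Its core TGACG, which the palindrome contains, was found on either strand in 12 of the 29, windows of GNAS, PRKACA, PRKACB, PRKAR1A, PRKAR1B and PRKAR2A, and in 24.6% of all windows. TATAAA was found in 5 of the 29, windows of GNAS, PRKACB and PRKAR1A, and in 11.5% of all windows. CCAAT was found in 5 of the 29, windows of PRKACA, PRKACB and PRKAR1A, and in 34.6% of all windows. Several windows of a gene overlap, so the 29 are not independent, and these matches describe letters in a window and are not evidence of binding.

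ARHGAP36 (ENSG00000147256.12; GRCh38 chrX:131058242-131089883, plus strand) had 30248, 31808 and 24328 counts in control replicates 1, 2 and 3. Scaled, these are 2828, 2783 and 2747 CPM, a mean of 2786 ± 40.7 CPM (SD, n = 3). The 3 libraries were close together, the highest being 1.03 times the lowest. Its coefficient of variation was 1.46%, against a median of 4.54% over the 25 nuclear genes within 2-fold of its count, and counting error alone was 0.561 to 0.641% per library. ARHGAP36 was at rank 6 among nuclear genes by mean CPM, between EEF2 (3070 ± 316 CPM), a translation elongation factor, and HSP90AA1 (2691 ± 230 CPM), a cytosolic chaperone. This rank is part of how the gene was chosen and is given as a description.

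GNAS (ENSG00000087460.28; chr20:58839718-58911192, plus strand), the stimulatory G-protein alpha gene, had 36336, 36508 and 26180 counts. These are 3398, 3195 and 2956 CPM, a mean of 3183 ± 221 CPM (n = 3). Replicate 1 was the highest and replicate 3 the lowest, 1.15-fold apart. The coefficient of variation was 6.94%, above the median of 2.94% over the 15 nuclear genes of like count. GNAS stood at rank 3, between HSPA8 (3303 ± 97.1 CPM), a constitutive chaperone, and RGS5 (3165 ± 447 CPM), a regulator of G-protein signalling. The locus is known to produce several proteins from alternative first exons, including XL alpha s and NESP55, and gene counts cannot separate them from the stimulatory alpha subunit.

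Overlapping genes could raise or lower the count of a few members. Neither the strand setting of the counting nor the treatment of shared reads is given in the sources used here. In GENCODE release 29 the exons of ARHGAP36, PRKACA, PRKACB, PRKAR2B and PKIA overlap no other gene's exons. For GNAS, 8.73% of the merged exon length is covered by exons on the other strand, of GNAS-AS1 and AL121917.1. GNAS-AS1 itself had 5, 5 and 2 counts. For PRKAR1B 8.53% is covered on the other strand by DNAAF5 exons, and for PRKAR1A 8.0% on the same strand by AC007780.1. The covered part of PRKAR2A is 4.14%, by PRKAR2A-AS1, and that of CREB1 0.616%.

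The catalytic subunits, the kinase itself, were far less abundant than ARHGAP36 and GNAS, in CPM and also per length. PRKACA (ENSG00000072062.15; chr19:14091688-14118084, minus strand), which encodes the alpha catalytic subunit, had 1231, 1191 and 903 counts. Its CPM values were 115, 104 and 102, a mean of 107 ± 7.03 (n = 3), with replicate 1 the highest. PRKACB (ENSG00000142875.19; chr1:84078062-84238498, plus strand), for the beta catalytic subunit, had 600, 647 and 648 counts. Its CPM values were 56.1, 56.6 and 73.2, a mean of 62.0 ± 9.71. Replicates 1 and 2 were nearly equal and replicate 3 lay above both, and the coefficient of variation, 15.7%, was the highest of the 10 members.

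PRKAR1A (ENSG00000108946.15; chr17:68511780-68551319, plus strand), the type I alpha regulatory subunit, was the most abundant PKA subunit transcript, in CPM and also per length. It had 3002, 3250 and 2527 counts, or 281, 284 and 285 CPM, a mean of 283 ± 2.45 CPM (n = 3). No member had a smaller coefficient of variation in CPM, 0.865%, which is below its counting error of 1.75 to 1.99% per library. PRKAR1B (ENSG00000188191.15; chr7:549197-727650, minus strand), its beta counterpart known from neurons, had 687, 649 and 451 counts. It measured 64.2, 56.8 and 50.9 CPM, a mean of 57.3 ± 6.67, with replicate 3 the lowest.

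The type II regulatory subunits are known to anchor PKA to membranes and cytoskeleton through A-kinase anchoring proteins. PRKAR2A (ENSG00000114302.16; chr3:48744597-48847846, minus strand) had 863, 905 and 782 counts, or 80.7, 79.2 and 88.3 CPM, a mean of 82.7 ± 4.89 (n = 3). PRKAR2B (ENSG00000005249.13; chr7:107044649-107161811, plus strand) had 615, 723 and 616 counts, or 57.5, 63.3 and 69.6 CPM, a mean of 63.4 ± 6.03. Replicate 3 was the highest library for both genes.

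PKIA (ENSG00000171033.13; chr8:78516139-78605267, plus strand), a small protein that blocks the free catalytic subunit as a pseudosubstrate, had the lowest CPM of the 10. It had 316, 398 and 300 counts, or 29.5, 34.8 and 33.9 CPM, a mean of 32.8 ± 2.81 (n = 3). CREB1 (ENSG00000118260.15; chr2:207529737-207603431, plus strand) had 671, 910 and 705 counts, or 62.7, 79.6 and 79.6 CPM, a mean of 74.0 ± 9.74. Its replicates 2 and 3 agreed closely and replicate 1 lay below them. The median over the 10 members was 78.6 ± 5.79 CPM, beside 31.3 ± 0.334 CPM over the 13920 genes that reached 10 counts in each library, but the members were chosen with levels in view and the difference was not tested.

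**Figure D1:**
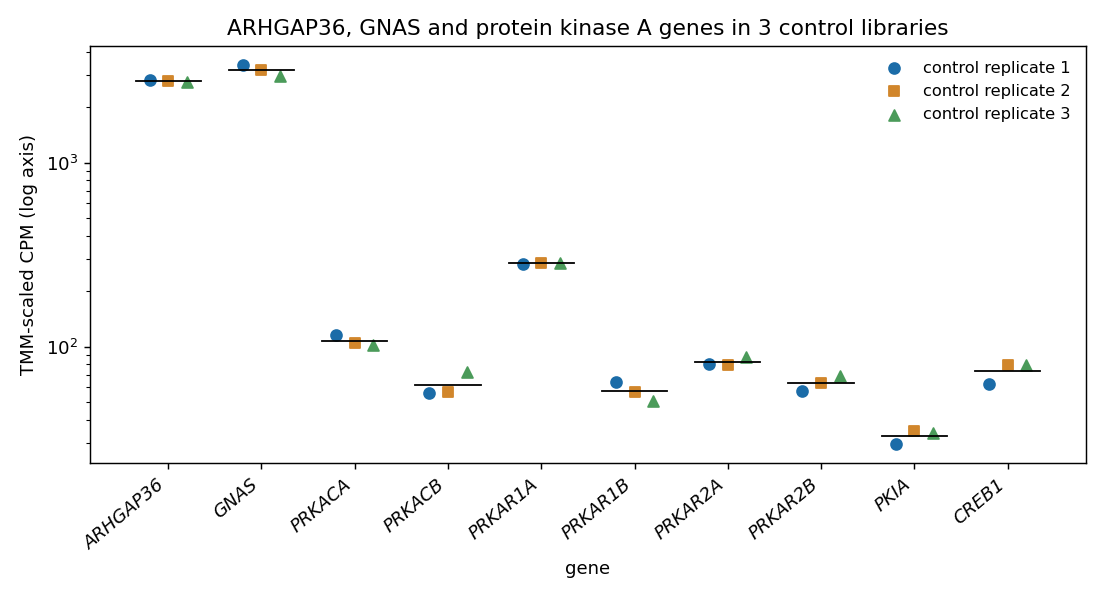
TMM-scaled CPM (log axis) of the 10 genes, 1 point per control library and a bar at the mean of the 3. ARHGAP36 (2786 CPM) and GNAS (3183 CPM) stand above PRKAR1A (283 CPM), and the other 7 genes lie between 32.8 and 107 CPM on average.

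To compare genes with each other, counts were divided by the length of the gene's merged exons in GENCODE release 29 and scaled to a sum of 1000000 in every library (TPM). ARHGAP36 then had 3504, 3489 and 3168 TPM, a mean of 3387 ± 190 (n = 3), and was at rank 4 among nuclear genes. GNAS had 1003, 954 and 812 TPM, a mean of 923 ± 99.1, at rank 67. The 2 genes thus change places, ARHGAP36 being 3.68 ± 0.204 times GNAS per length. The size of this ratio rests on the length assigned to GNAS, whose merged exons span 13320 bases over 58 annotated transcripts, 3.31 times its longest transcript of 4029 bases. With longest transcripts as the length, GNAS was at 2268 ± 214 TPM and ARHGAP36 at 2592 ± 108 TPM, a ratio of 1.15 ± 0.0637. ARHGAP36 was above GNAS in 3 of 3 libraries with either length.

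Behind them came PRKAR1A with 160 ± 6.53 TPM and PRKACA with 67.3 ± 6.47 TPM, and the library ranges of these 4 genes did not overlap. PRKAR2B (56.5 ± 3.63 TPM), PRKAR1B (49.3 ± 7.42 TPM) and PRKAR2A (47.9 ± 0.629 TPM) followed, and neighbours among these 3 had overlapping ranges. PRKACB (35.3 ± 3.86 TPM), PKIA (29.9 ± 2.69 TPM) and CREB1 (29.8 ± 3.70 TPM) were lowest, again with overlap between neighbours. The order of the leading 4 was the same with longest transcripts. The order below them was not: PRKAR1B (64.5 ± 8.94 TPM) then stood above PRKAR2B (48.5 ± 3.52 TPM), and PRKACB (39.3 ± 4.92 TPM) above PRKAR2A (36.6 ± 1.05 TPM).

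**Figure D2:**
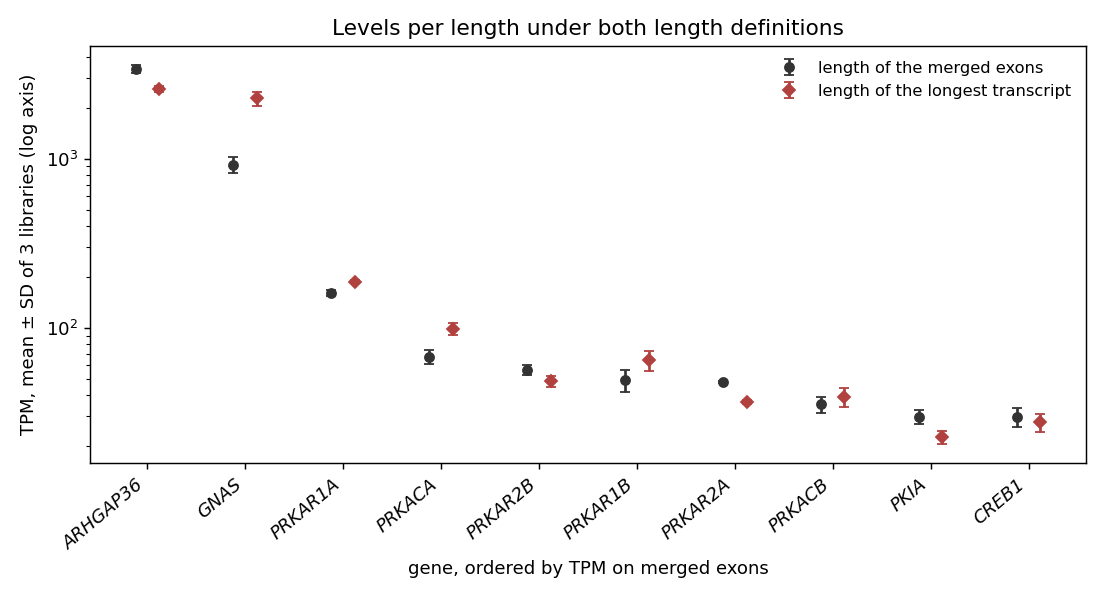
TPM (log axis, mean with SD over 3 control libraries) of the 10 genes with the length taken from merged exons or from the longest transcript. ARHGAP36 leads with both; GNAS moves most, from 923 to 2268 TPM.

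Within PKA, transcripts for regulatory subunits outnumbered those for catalytic subunits. The regulatory genes summed to 318, 322 and 302 TPM and the catalytic genes to 106, 101 and 101 TPM. The catalytic to regulatory ratio was 0.335, 0.314 and 0.333, a mean of 0.327 ± 0.0116 (n = 3), or 0.410 ± 0.0140 with longest transcripts. The holoenzyme pairs the 2 kinds of subunit in equal number, and transcript ratios do not give protein ratios.

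PRKACB made up 30.8%, 33.2% and 39.6% of the catalytic transcripts per length, a mean of 34.5 ± 4.55% (n = 3), and PRKACA the rest. Replicate 3 had the largest PRKACB share. Type I genes made up 68.5%, 67.2% and 64.4% of the regulatory transcripts, a mean of 66.7 ± 2.11%. PRKAR1A alone held 51.0 ± 0.456%, PRKAR2B 18.03 ± 1.53%, PRKAR1B 15.7 ± 1.97% and PRKAR2A 15.3 ± 0.721%. With longest transcripts the type I share was 74.7 ± 1.86% and the PRKACB share 28.5 ± 4.12%.

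**Figure D3:**
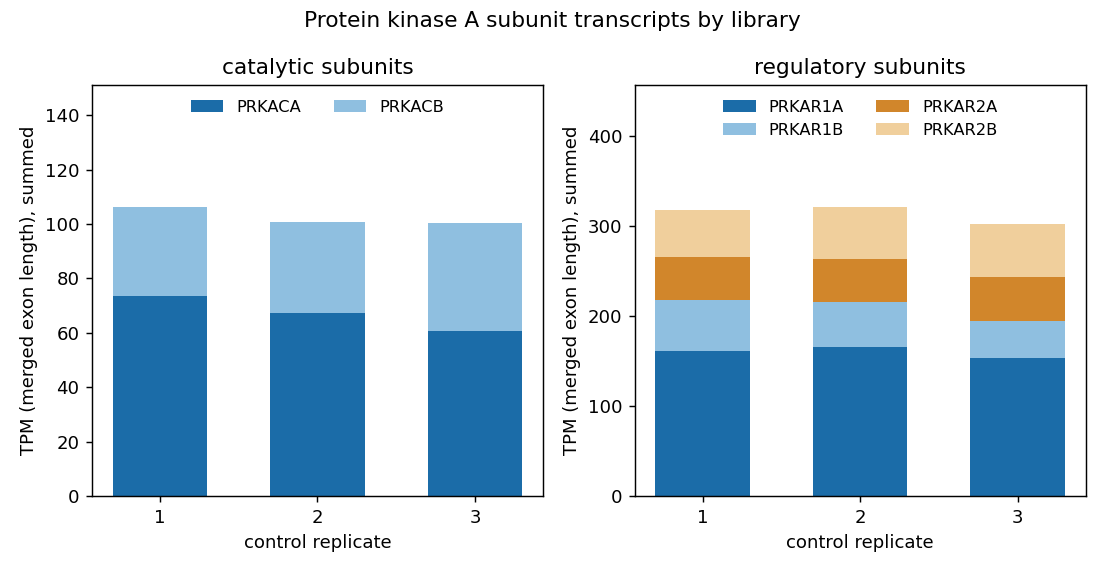
Summed TPM of the PKA catalytic (left) and regulatory (right) subunit genes in each control library, on merged exon length, with axes from 0. Regulatory bars reach 302 to 322 TPM and catalytic bars 101 to 106 TPM; PRKAR1A is the largest segment on the right in every library.

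The transcripts of the PKA inhibitors ARHGAP36, chosen for its high level, and PKIA were of very different abundance. PKIG, a relative of PKIA, is given further below. ARHGAP36 was 32.9, 34.6 and 31.5 times the summed catalytic genes per length, a mean of 33.0 ± 1.53 (n = 3), and 18.8 ± 0.734 times with longest transcripts. PKIA was 0.259, 0.326 and 0.293 times the catalytic sum, a mean of 0.292 ± 0.0333, and 0.164 ± 0.0191 times with longest transcripts. ARHGAP36 exceeded PKIA 114 ± 11.7-fold per length. GNAS, also chosen for its high level, was 8.98 ± 0.784 times the catalytic sum on merged exons and 16.4 ± 1.25 times with longest transcripts.

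The differences between libraries were related to the GC content of the transcripts, the share of G and C in each gene's longest transcript. Against the mean of replicates 1 and 2, log2 CPM in replicate 3 was higher for 6 members and lower for 4. The 6 higher ones all have under 46% GC and the 4 lower ones over 50%, a boundary set after the values were seen. The differences ranged from 0.38 for PRKACB (37.9% GC) to -0.25 for PRKAR1B (62.4% GC). GNAS (58.9% GC) differed by -0.16, PRKACA (54.2% GC) by -0.10 and ARHGAP36 (50.6% GC) by -0.03. Across 10290 nuclear genes the 5th to 95th percentiles were -0.33 to 0.35, and PRKACB was the 1 member outside them. Replicate 3 also had the lowest total and the largest share of counts in mitochondrially encoded genes, 6.25% (95% Wilson interval 6.24 to 6.27%, counting error only) against 4.11% (4.10 to 4.12%) in replicate 1 and 3.83% (3.82 to 3.84%) in replicate 2. The part of these in the differences was not tested.

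When the GC trend of each library was subtracted, the coefficient of variation was smaller for 9 of the 10 members. Its median went from 7.77 to 4.69% over the members and from 7.30 to 5.15% over all 10290 genes, so the members are read against a general fall. That of GNAS went from 6.94 to 1.5%, with values of 3229, 3138 and 3161 CPM, and that of PRKACB from 15.7 to 7.50%. PRKAR1A went the other way, from 0.865 to 7.14%, with values of 303, 286 and 262 CPM. PRKAR1A (39.2% GC) therefore had steady CPM in libraries where genes of like GC differed. No member lay outside the 5th to 95th percentiles of all genes after subtraction, which were -0.22 to 0.26. What made the libraries differ with GC was not tested.

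**Figure D4:**
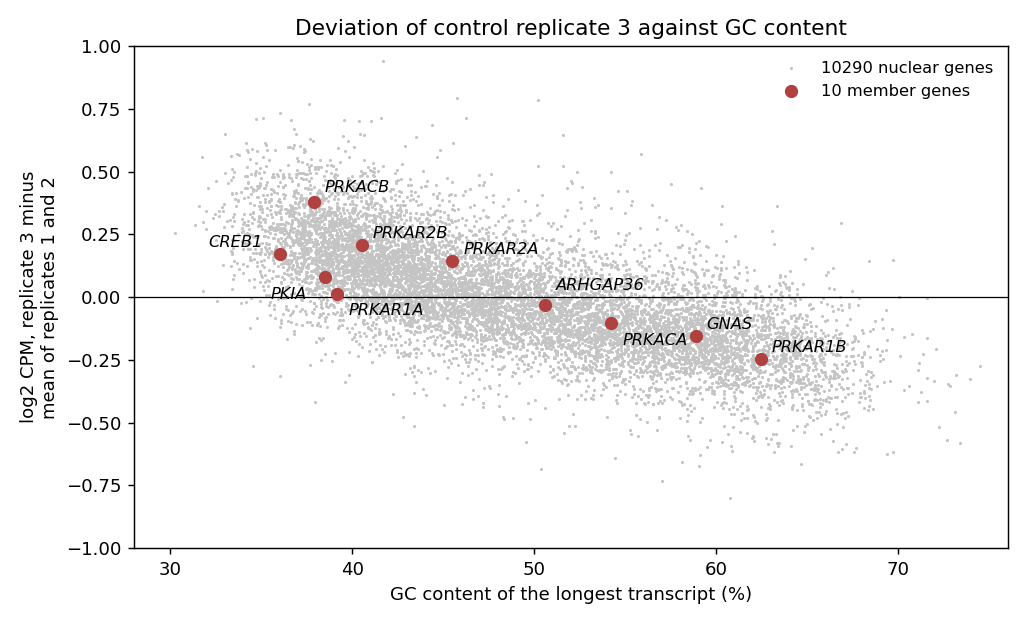
Log2 CPM of control replicate 3 minus the mean of replicates 1 and 2, against the GC content of the longest transcript, for 10290 nuclear genes (grey; 4 lie outside the plotted range) and the 10 member genes (red). Members with low GC sit above 0 and those with high GC below, from PRKACB at 0.38 to PRKAR1B at -0.25.

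By the rule used for likeness, the genes whose 3 log2 CPM values departed from their own mean most nearly as those of ARHGAP36 did were PEBP1, PSAP, CIAPIN1, PABPC4 and SLC7A1, at Euclidean distances of 0.0029 to 0.0057 over 3 libraries. ARHGAP36 departed by 0.02 in replicate 1 and by -0.02 in replicate 3, with replicate 2 between them. Of 2645 nuclear genes averaging 1000 counts or more, 409 lay within 0.05 of it, so the 3 libraries single out no small group.

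In the lists that follow, genes are named in order of CPM, which does not allow for length, and the mean TPM of the 3 replicates is given for levels between genes. A list of 31 receptor genes held those that couple to the stimulatory G protein and others known as active without a ligand. Of these, 13 had at least 10 counts in every library, beside 22.9% of all genes in the table. The same 22.9% goes beside the counts given for each list below. It is over 60709 genes, 32543 of which had 0 counts in every library, so it is a low bar for genes picked by name. Not every listed receptor acts through GNAS or raises cyclic AMP. GPR161, a cilium receptor that keeps Hedgehog signalling off, had 150 ± 7.64 CPM (n = 3) and 51.6 TPM. PTGER2, a prostaglandin E2 receptor, had 82.8 ± 11.2 CPM and 129 TPM, so that it stood above GPR161 per length. The orphan receptor GPR176, not taken here as coupled to the stimulatory G protein, had 40.1 ± 2.99 CPM and 30.3 TPM. ADCYAP1R1, the PACAP receptor, had 14.1 ± 1.01 CPM and was named after its value was seen. Counts were 0 in all 3 libraries for 8 receptors, among them ADRB1, ADRB3, DRD1, DRD5 and HTR4, which allows up to 0.339 CPM in replicate 3.

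Per length, GNAS made up 64.3 ± 1.45% of the transcripts of 13 G-protein alpha genes, or 80.3 ± 0.821% with longest transcripts. Because GNAS was chosen for its high level, a large share was to be had in any case. Its counts also take in the other products of the locus, so the share is not that of the stimulatory alpha subunit alone. The next by CPM were GNAI2 (215 ± 8.82 CPM; 108 TPM), an inhibitory alpha subunit, GNA12 (175 ± 10.1 CPM; 110 TPM) and GNAI3 (140 ± 14.3 CPM; 19.8 TPM). GNAL, the olfactory stimulatory alpha subunit, named after its value was seen, had 13, 11 and 10 counts. Among the other 12 alpha genes, 10 had at least 10 counts in every library.

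Of 10 adenylyl cyclases, which make cyclic AMP, 6 had at least 10 counts in every library. ADCY1, a calcium-stimulated form of neurons, had 191 ± 18.6 CPM (n = 3) and 53.4 TPM, ADCY6, a calcium-inhibited form, 150 ± 8.02 CPM and 68.9 TPM, and ADCY3 44.4 ± 2.69 CPM and 28.3 TPM. ADCY1 and ADCY6 held 71.4 ± 0.725% of cyclase transcripts per length. GNAS, chosen for its high level, was 5.39 ± 0.0259 times the summed cyclases per length, and 14.5 ± 0.0910 times with longest transcripts. Of 16 phosphodiesterases that break cyclic AMP down, 11 passed the same count and PDE1B had 0 counts. The highest by CPM were PDE4B (68.9 ± 4.79 CPM; 30.7 TPM), PDE10A (53.2 ± 2.13 CPM; 9.31 TPM) and PDE7A (52.5 ± 3.68 CPM; 27.2 TPM), and PDE8A (16.1 TPM) was above PDE10A per length. The exchange factors RAPGEF4 (5.76 ± 0.615 CPM) and RAPGEF3 (2.20 ± 0.0548 CPM), which respond to cyclic AMP without PKA, were low.

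Among further PKA regulators, PJA2, a ubiquitin ligase that acts on regulatory subunits, had 186 ± 12.7 CPM (n = 3). PKIG, a relative of PKIA, had 43.6 ± 1.95 CPM and 67.3 TPM, above the 29.9 TPM of PKIA. PRKX, a related kinase, had 42.7 ± 2.06 CPM. PKIB had 1, 0 and 1 counts and the catalytic gene PRKACG had 0, 1 and 0. PKIA and PKIG together were 0.948 ± 0.0321 times the catalytic sum per length. ARHGAP36 held 97.2 ± 0.0504% of the summed TPM of ARHGAP36, PKIA and PKIG. Because ARHGAP36 was chosen for its high level, a large share was to be had in any case.

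Of the 15 A-kinase anchoring genes matched, 12 had at least 10 counts in every library. EZR, a linker of membrane and actin, had 178 ± 3.53 CPM (n = 3) and 206 TPM. AKAP9, a Golgi and centrosome scaffold, had 161 ± 10.2 CPM and 34.0 TPM, and the microtubule protein gene MAP2 had 156 ± 6.87 CPM and 52.0 TPM. AKAP14 had 0 counts. The median over this list was 54.3 ± 1.35 CPM.

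Downstream, 9 of 10 relatives, coactivators and regulators of CREB1 had at least 10 counts in every library. CREBBP, a coactivator that binds phosphorylated CREB1, had 201 ± 16.9 CPM (n = 3) and 50.2 TPM, SIK2, a kinase that restrains CREB coactivators, 167 ± 12.6 CPM and 65.7 TPM, and EP300 115 ± 8.30 CPM and 35.6 TPM. The coactivator CRTC2 had the most TPM of this list, 98.8. SIK1 had 0 counts, and its value is uncertain because a near-identical copy of the gene exists in the assembly and how reads matching both copies were assigned is not given in the sources used here. Among 21 genes known as CREB targets, 12 had at least 10 counts in every library. VGF, a secreted neuropeptide precursor, had 30729, 29875 and 18984 counts, a mean of 2544 ± 370 CPM and 3641 TPM, with replicate 3 the lowest. JUNB followed with 94.2 ± 6.97 CPM and 200.02 TPM and RGS2 with 78.6 ± 10.4 CPM and 144 TPM. CRH, SST, PENK and TH had 0 counts in every library. TH encodes the rate-limiting enzyme of catecholamine synthesis.

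Of 15 Hedgehog pathway genes, 9 had at least 10 counts in every library. SMO, the signal transducer that PKA acts below, had 108 ± 8.94 CPM (n = 3) and 96.8 TPM, SUFU, an inhibitor of GLI factors, 52.0 ± 3.19 CPM and 29.2 TPM, and the co-receptor CDON 49.5 ± 1.5 CPM and 17.98 TPM. The pathway's usual readout gene GLI1 had 10, 8 and 2 counts and GLI3 0, 0 and 1, while GLI2 had 83, 102 and 52 counts and PTCH1 44.5 ± 3.80 CPM. These 4 were named after their values were seen. Of 6 genes beside or antisense to GNAS on chromosome 20, 2 reached 10 counts in every library, and NPEPL1 (7.12 ± 1.10 CPM), CTSZ (2.58 ± 0.574 CPM) and TUBB1 (0.931 ± 0.246 CPM) were the highest by CPM.

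**Figure D5:**
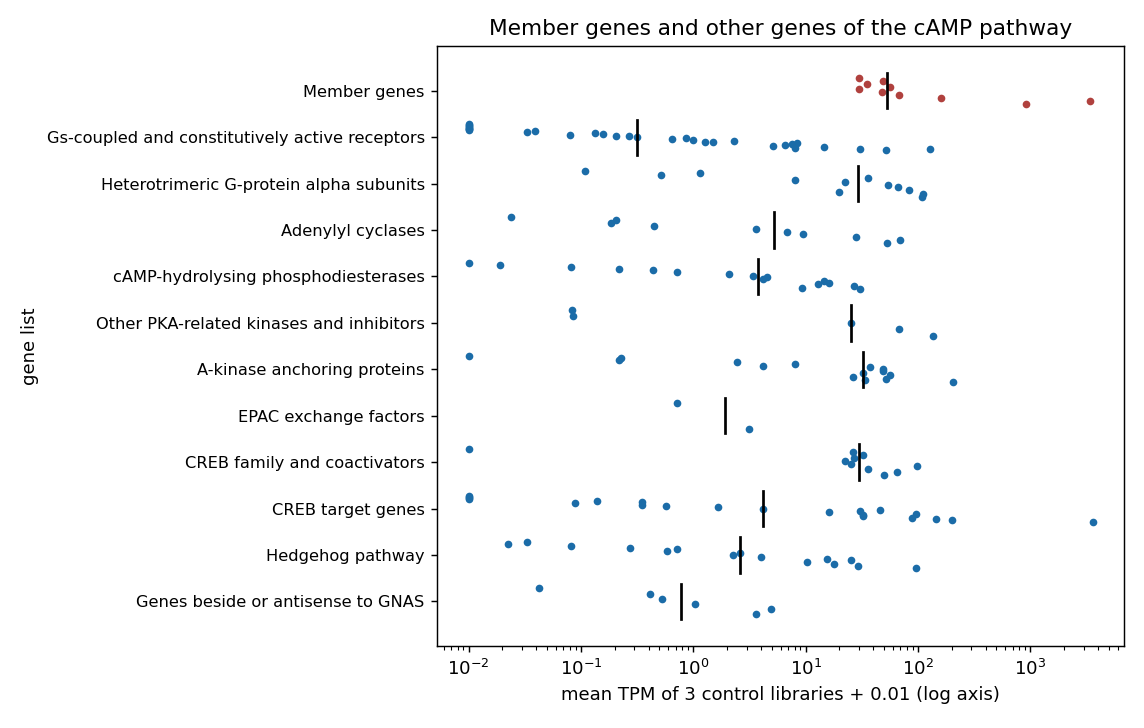
Mean TPM over 3 control libraries plus 0.01 (log axis), 1 point per gene, for the 10 member genes (red) and 11 lists of other pathway genes (blue), with a bar at each list's median. ARHGAP36 (3387 TPM) and VGF are the points above 1000 TPM, and genes at 0 counts sit at 0.01.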

How the data were processed

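Total RNA was turned into stranded mRNA libraries, per the labels' protocols. The authors deposited raw counts per Ensembl gene without normalization, per the file headers and values. The submitters' processing notes name fastp 0.21.1, STAR 2.7.7a, featureCounts and GRCh38; annotation, strand setting and treatment of shared reads are not given in the sources used here. Columns were matched to samples by number, and 3 columns matched none. ENSG00000145362.20 gave no value in the columns used and 2 lines named no gene, leaving 60709 genes, 60436 of them with a symbol; the rest held 0.029% of counts.

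CPM used TMM factors (edgeR 4.0.16, R 4.3.3). TPM used merged exon lengths from GENCODE release 29, which covered 58419 genes and nearly all counts (99.95%). GC trends were medians in 50 bins over nuclear genes averaging 100 counts or more, with 10 or more in each library. The trend removal was run on simulated data: a slope of -0.02 (log2 per percent GC) put into 10290 genes became 0.000125 after removal. The trend was fitted on the same genes, so a slope near 0 was to be had in any case. A log2 change of 1.0 put into 200 of the genes came back as a median of 0.996 above the rest. Further steps used Python 3.11.15 with pandas 2.3.3, numpy 2.4.6, scipy 1.17.1 and, for figures, matplotlib 3.10.9.

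The planned comparison of peptide-treated with control wells was not run, and no other comparison was tested, since only 1 group had matched columns. The members and lists were chosen with earlier results of these data known. Named genes were the members, the 3 highest by CPM of each list, up to 5 genes per list at 0 counts, and the 5 genes closest to ARHGAP36; exceptions are stated. AKAP2 matched no symbol. Alternatives were longest transcript length, GC trend removal, RLE factors, unscaled library size, totals without mitochondrial genes, a minimum of 1 count and each library left out.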

Additional observations from a re-analysis of the deposited data

How the results depend on the processing

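The length assigned to a gene moved values most. With the longest transcript in place of merged exons, the median of the 10 members per length went from 54.1 to 56.5 TPM, the PRKACB share from 34.5 to 28.5%, the type I share from 66.7 to 74.7%, the catalytic to regulatory ratio from 0.327 to 0.410 and the ratio of ARHGAP36 to the catalytic genes from 33.0 to 18.8; each moved by more than 1 SD between libraries, as did 9 of 10 single levels per length. Removal of the GC trend moved the median per length to 53.3 TPM, beyond its SD of 0.292, and moved no other of these values by 1 SD. RLE size factors and library size alone changed no member's mean CPM by more than 0.0602%. Leaving out mitochondrial genes raised all 10 by 4.97%, which is more than 1 SD for 2 of them. RLE size factors and library size alone act on differences between libraries, and leaving out mitochondrial genes shifted all 10 means almost alike. Leaving out 1 of 3 libraries cannot move a mean by 1 SD. None of these settings says much about stability. Of the 141 pathway genes matched, 87 had at least 10 counts in every library and 110 had at least 1. Over all 60709 genes in the table these numbers were 13920 and 19616. No paired analysis was possible because only the control samples had matched columns. At this depth the rarest members rest on 300 to 398 counts, a counting error of 5.01 to 5.77% per library for PKIA.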

Other observations

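NELFCD, which lies near GNAS on chromosome 20 and encodes a subunit of the negative elongation factor, had 10, 7 and 9 counts, and CTSZ, next to it, had 32, 22 and 25 counts. Both were chosen after their values were seen. How reads overlapping these genes were counted is not stated.

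VIP, a neuropeptide of the CREB target list whose receptors raise cyclic AMP, had 385, 401 and 430 counts, 39.9 ± 7.53 CPM (SD, n = 3), while its receptor genes VIPR1 and VIPR2 had 2, 0 and 2 counts and 19, 20 and 14 counts. EGR1 had 71.5 ± 2.19 CPM and FOS 25.4 ± 0.426 CPM, with FOSB at 3, 6 and 6 counts and NR4A2 at 1, 1 and 2. All 7 were picked with their values in view.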
